A study of Homo sapiens with 6 samples.

Results

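The zinc finger cluster of 19p12 is a stretch of human chromosome 19, chr19:19800000-24500000 on hg19, in which KRAB zinc finger genes multiplied in the primate lineage. Its members here were the RNA binding sites, on either strand, whose midpoint fell between these positions. They numbered 688 of the 464799 sites in 6 deposited site lists. Membership was set by position alone, and the region itself was chosen with earlier results of these data known.

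The sites came from PAR-CLIP, in which 4-thiouridine built into cellular RNA is linked by ultraviolet light to the protein it touches, and the RNA recovered with that protein is sequenced. The libraries were made from FXR1, from FXR2, from FMR1 isoform 7 with I304N, from FMR1 isoform 1 with I304N, from wild-type FMR1 isoform 7 and from wild-type FMR1 isoform 1, with 1 library each. I304N replaces an isoleucine by an asparagine in an RNA-contacting KH domain. Every protein carried a FLAG-HA tag and was made from a doxycycline-inducible transgene in a stable line of FlpIn T-REx HEK293, an established human embryonic kidney line, after 16 h with 1 µg/ml doxycycline and 100 µM 4-thiouridine. All values therefore describe tagged proteins made from transgenes, and the labels do not say whether the cells still made their own FMR1, FXR1 or FXR2. All libraries used ultraviolet light of 365 nm at 0.15 J per square cm, and RNase T1 for 15 min at 22 °C. With 1 library per protein there is no replicate error, and no p-value was computed. Intervals are exact 95% intervals and cover counting error only: neighbouring sites are not independent, and no molecular identifiers are named.

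KRAB zinc finger proteins bind DNA through rows of C2H2 fingers and recruit a corepressor through the KRAB domain. Many of them silence transposable elements, and the genes lie in clusters of close copies. The fingers of such a gene follow each other as a tandem repeat, each joined to the next by a short conserved linker. FMR1, FXR1 and FXR2 are RNA-binding paralogs with KH domains. FMR1 is lost in fragile X syndrome and is known as a regulator of translation.

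The repeat is shown first because distances between sites are set against it below. In GENCODE transcripts of 35 zinc finger genes listed for 19p12, all 35 of which RefSeq places on chromosome 19, the linker codons were found 280 times in 34 genes. The commonest form made up 190 of the 280 linkers (67.9%):

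linker: ACTGGAGAGAAACCC

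The unit from one linker to the next is shown for the first pair of successive 84-base units in ZNF208, the listed gene with most linkers (19). They cover bases 1239 to 1322 and 1323 to 1406 of the transcript, 5′ to 3′, with the linker in capitals:

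ZNF208 unit 1: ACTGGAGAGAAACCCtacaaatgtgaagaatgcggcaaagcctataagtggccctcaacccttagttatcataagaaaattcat

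ZNF208 unit 2: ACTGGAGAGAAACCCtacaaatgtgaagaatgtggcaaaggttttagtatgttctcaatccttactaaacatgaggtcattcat

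The units were identical at 66 of 84 bases (78.6%), and both linkers had the commonest form. Over the 35 genes, 137 of 246 distances between successive linkers (55.7%) were exactly 84 nt, the length of 28 codons. A further group lay at longer multiples, so that 237 (96.3%) were a whole multiple of 84 nt. Arrays of 5 or more linkers were present in 32 of the 35 genes and in 224 of 19634 other protein-coding genes (1.14%). The 4-letter strings ACTG and TGGA, which belong to sequence elements described for FMR1, overlap in the commonest linker. ACTG was held by 271 linkers (96.8%) and by 5.52% of all 15-base stretches, taken codon by codon on the sense strand, in the reading frames of other genes. TGGA was held by 252 linkers (90.0%) and by 9.69% of such stretches. The related strings ACTT and AGGA were held by 0 and 3 linkers, and by 4.06% and 8.92% of such stretches. The linkers were found through their peptide, whose codons cannot hold ACTT, so that 0 was fixed by the search. The other strings depend there only on the choice among codons for the same amino acids. The stretches of other genes are therefore not a like comparison. These transcripts were not matched to the sites: the reference at hand was on GRCh38 and the sites are on hg19, so the gene and the sequence under each site were not analysed here.

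FXR1 and FXR2 had the highest shares of their sites in 19p12. FXR1 had 77 of 9017 sites there (0.854%, interval 0.674 to 1.07). FXR2 had 152 of 34521 (0.440%, 0.373 to 0.516). I304N isoform 7 had 72 of 88644 (0.0812%, 0.0636 to 0.102). I304N isoform 1 had 94 of 132219 (0.0711%, 0.0575 to 0.0870). Wild-type isoform 7 had 54 of 78495 (0.0688%, 0.0517 to 0.0898), and wild-type isoform 1 had 239 of 121903 (0.196%, 0.172 to 0.223). Wild-type isoform 1 thus stood between FXR2 and the other FMR1 libraries, while the intervals of the remaining 3 FMR1 libraries overlapped each other. Of the sites on chromosome 19, 19p12 held 14.5% for FXR1, 6.87% for FXR2, 0.802% for I304N isoform 7, 0.871% for I304N isoform 1, 1.08% for wild-type isoform 7 and 3.99% for wild-type isoform 1.

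**Figure D1:**
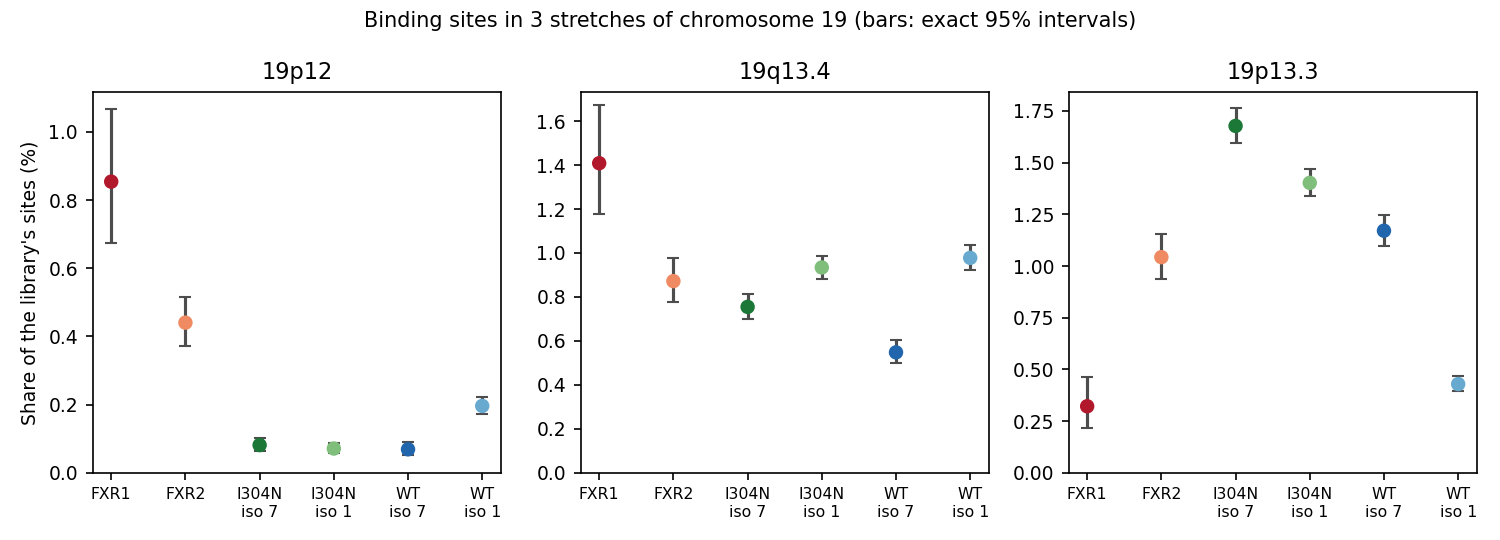
Share of each library's sites (%) in 19p12 and in comparison regions of chromosome 19, with points for the libraries and bars for exact 95% intervals; the vertical scales differ between panels. In 19p12 the FXR1 point lies at 0.854% and wild-type isoform 1 at 0.196%, with the other FMR1 libraries between 0.0688% and 0.0812%.

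As ratios of shares, FXR1 was 4.36 times wild-type isoform 1 (3.32 to 5.65) and 12.4 times wild-type isoform 7 (8.65 to 17.9). FXR2 was 2.25 times wild-type isoform 1 (1.82 to 2.76) and 6.40 times wild-type isoform 7 (4.66 to 8.90). Without sites flagged as lying in repeats, the ratios to wild-type isoform 7 were 21.5 for FXR1 and 11.1 for FXR2. These comparisons share the wild-type libraries, so they are not separate lines of evidence. FXR1 was 1.94 times FXR2 (1.45 to 2.57), and FXR1 had the shortest list of all. How site number depends on depth and on the site caller, neither of which is given in the sources used here, was not tested.

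The comparison of I304N with wild type gave different values for the isoforms. In isoform 1, the I304N share was 0.363 of the wild-type share (0.283 to 0.462). In isoform 7, the ratio of I304N to wild type was 1.18 and its interval held 1 (0.818 to 1.71), but it was 1.91 (1.20 to 3.10) without repeat-flagged sites and 0.742 (0.514 to 1.08) with chromosome 19 sites as denominator. With that denominator the isoform 1 ratio was 0.218 (0.170 to 0.278). The ratio of isoform 7 to isoform 1 was 1.14 among the I304N libraries (0.829 to 1.57) and 0.351 among the wild-type libraries (0.256 to 0.473). Without repeat-flagged sites the wild-type value was 0.217 (0.140 to 0.323), and with chromosome 19 sites as denominator the I304N value was 0.921 (0.668 to 1.27). On the rest of chromosome 19, by contrast, the I304N share was above the wild-type share in both isoforms, at 1.72 times in isoform 1 (1.66 to 1.77) and 1.60 times in isoform 7 (1.54 to 1.65).

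Zinc finger genes are also clustered at 19q13.4, taken as 52 to 59 Mb, whereas 19p13.3, taken as the first 6.9 Mb, is gene-dense. At 19q13.4 the FXR1 share was 1.44 times that of wild-type isoform 1 (1.19 to 1.73), and the FXR2 share was 0.892 times (0.783 to 1.01). The I304N share there was 0.955 of wild type in isoform 1 (0.881 to 1.04). Against wild-type isoform 7, FXR1 at 19q13.4 was 2.57 times (2.09 to 3.14) and FXR2 1.59 times (1.37 to 1.85). Wild-type isoform 7 was 0.560 of wild-type isoform 1 there (0.501 to 0.626). These 3 ratios had the same direction as in 19p12. At 19p13.3 the FXR1 share was 0.750 of that of wild-type isoform 1 (0.497 to 1.09). The FXR2 share there was 2.43 times (2.12 to 2.79) and the I304N isoform 1 share 3.27 times (2.96 to 3.61). The intervals of the FXR1, FXR2 and I304N isoform 1 ratios to wild-type isoform 1 in 19p12 did not overlap those at 19q13.4. That of FXR2 in 19p12 (1.82 to 2.76) did overlap its interval at 19p13.3. FXR1 was 1.62 times FXR2 at 19q13.4 (1.30 to 1.99), which overlapped the interval in 19p12 (1.45 to 2.57). The differences between regions have no test over replicates.

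The sites lay in few places. Of 188 windows of 50 kb and 1 strand, 45 held a site of any library. FXR1 occupied 16, FXR2 24, I304N isoform 7 20, I304N isoform 1 25, wild-type isoform 7 23 and wild-type isoform 1 28. The densest 5 windows of each library held between 54.6% of its 19p12 sites, in FXR2, and 68.1%, in I304N isoform 7. Sites on the plus strand numbered 24 of 77 for FXR1, 61 of 152 for FXR2, 43 of 72 for I304N isoform 7, 42 of 94 for I304N isoform 1, 18 of 54 for wild-type isoform 7 and 105 of 239 for wild-type isoform 1.

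Joining sites of any library on 1 strand across gaps of up to 2000 nt gave 69 clusters, a grouping chosen after the data had been seen. Of these, 15 held at least 8 sites, and they were 155 to 8913 nt long with a median of 3627 nt. They held 72 of 77 FXR1 sites, 133 of 152 FXR2 sites, 53 of 72 I304N isoform 7 sites, 64 of 94 I304N isoform 1 sites, 36 of 54 wild-type isoform 7 sites and 209 of 239 wild-type isoform 1 sites. Scaled to the length of each list, both FXR1 and FXR2 were denser than all 4 FMR1 libraries in 9 of the 15 clusters, by point value. Among these, the interval of the ratio to wild-type isoform 1 held 1 for FXR2 in clusters 1, 2 and 11, and for FXR1 in clusters 2 and 11. FXR sites count towards the 8 that a cluster needs, and no such count was made outside 19p12. Neither had a site in 3 clusters.

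**Figure D2:**
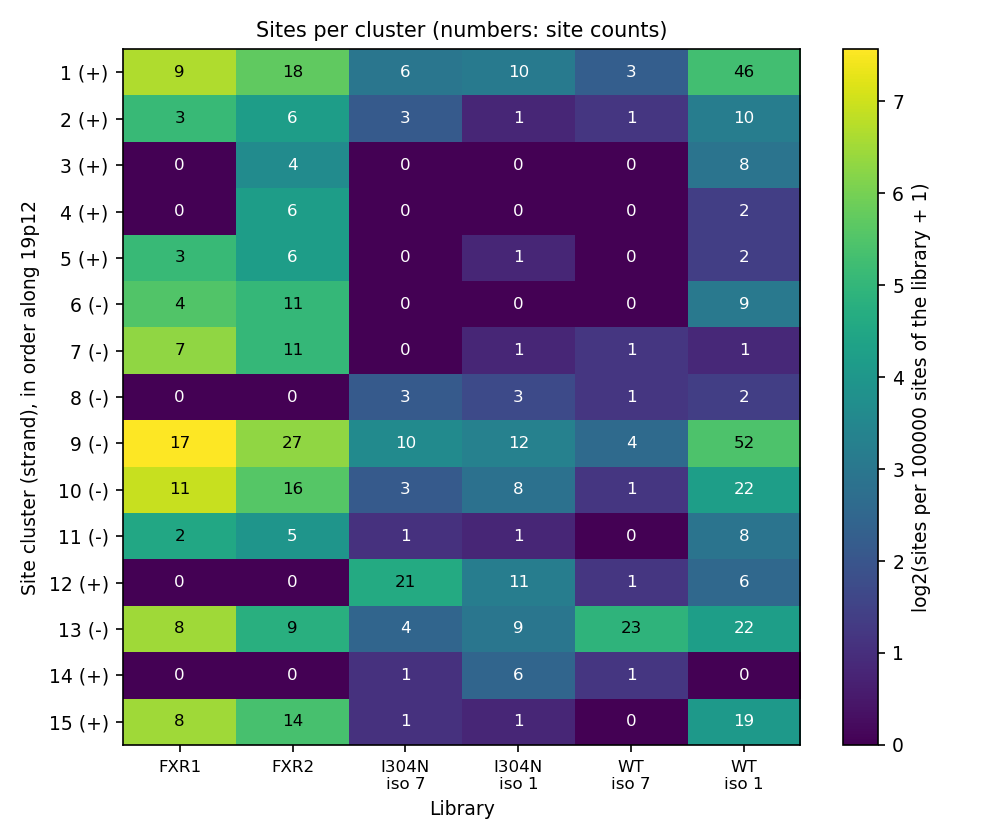
The 15 clusters of 19p12 with at least 8 sites (rows, numbered along the chromosome, with their strand) in the 6 libraries (columns); the colour gives log2 of sites per 100000 sites of the library plus 1, and the printed numbers are site counts. By point value, both FXR1 and FXR2 are denser than every FMR1 library in 9 clusters, and they have no site in clusters 8, 12 and 14.

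The cluster with most sites was cluster 9, chr19:23398190-23406807 on the minus strand. It held 17 FXR1 sites, 27 FXR2 sites, 10 I304N isoform 7 sites, 12 I304N isoform 1 sites, 4 wild-type isoform 7 sites and 52 wild-type isoform 1 sites. Relative to wild-type isoform 1 and scaled to list length, FXR1 was 4.42 times as dense (2.40 to 7.77), FXR2 1.83 times (1.11 to 2.97), and I304N isoform 1 0.213 times (0.103 to 0.404). Wild-type isoform 1 therefore had the largest number of sites there and FXR1 the largest share.

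Cluster 1, chr19:21299740-21308652 on the plus strand, held 9 FXR1, 18 FXR2, 6 I304N isoform 7, 10 I304N isoform 1, 3 wild-type isoform 7 and 46 wild-type isoform 1 sites. The scaled ratio of I304N isoform 1 to wild-type isoform 1 was 0.200 (0.0902 to 0.403). In cluster 10, chr19:23540636-23545503 on the minus strand, there were 11 FXR1, 16 FXR2, 3 I304N isoform 7, 8 I304N isoform 1, 1 wild-type isoform 7 and 22 wild-type isoform 1 sites. Cluster 15, chr19:24309189-24312602 on the plus strand, held 8 FXR1, 14 FXR2, 1 I304N isoform 7, 1 I304N isoform 1, 0 wild-type isoform 7 and 19 wild-type isoform 1 sites. There the scaled ratio of I304N isoform 1 to wild-type isoform 1 was 0.0485 (0.00117 to 0.305). These clusters shared a pattern in which FXR1, FXR2 and wild-type isoform 1 held most sites.

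In clusters 6 and 7 the FXR libraries held most sites. Cluster 6, chr19:21907048-21910706 on the minus strand, had 4 FXR1, 11 FXR2 and 9 wild-type isoform 1 sites and none of I304N isoform 7, I304N isoform 1 or wild-type isoform 7. The upper 95% limit of the scaled ratio of I304N isoform 1 to wild-type isoform 1 was 0.467. Cluster 7, chr19:21989412-21992592 on the minus strand, had 7 FXR1 and 11 FXR2 sites, against 0 I304N isoform 7 sites and 1 site in each of I304N isoform 1, wild-type isoform 7 and wild-type isoform 1. The FXR2 ratio to wild-type isoform 1 was 38.8, with an interval from 5.65 to 1672 because wild-type isoform 1 had a single site. Cluster 4, chr19:21606191-21609817 on the plus strand, had 6 FXR2 sites, 2 wild-type isoform 1 sites and none of the other libraries. Cluster 5, chr19:21719409-21720597 on the plus strand, had 3 FXR1, 6 FXR2, 0 I304N isoform 7, 1 I304N isoform 1, 0 wild-type isoform 7 and 2 wild-type isoform 1 sites. Clusters 2, 3 and 11 held most of their sites in FXR2, with 6, 4 and 5, and in wild-type isoform 1, with 10, 8 and 8. FXR1 had no site in cluster 3, where its list was too short to set it apart.

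Cluster 12 had the opposite composition. At chr19:23969422-23976466 on the plus strand, it held 0 FXR1, 0 FXR2, 21 I304N isoform 7, 11 I304N isoform 1, 1 wild-type isoform 7 and 6 wild-type isoform 1 sites. Scaled to list length, I304N isoform 7 exceeded wild-type isoform 7 there by 18.6 times (2.99 to 769), against a single wild-type isoform 7 site. I304N isoform 7 exceeded I304N isoform 1 by 2.85 times (1.31 to 6.54). I304N isoform 1 was 1.69 times wild-type isoform 1, with an interval that held 1 (0.573 to 5.57). The upper 95% limit of the scaled ratio of FXR2 to I304N isoform 7 was 0.493. For FXR1 the list was too short to tell 0 sites from the density in I304N isoform 7. Clusters 8 and 14, also without FXR sites, held 9 and 8 sites in all, too few to set FXR1 or FXR2 apart.

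Cluster 13, chr19:24182823-24187309 on the minus strand, differed in that 72 of its 75 sites (96.0%) were flagged in the deposited lists as lying in a repeat. It held 8 FXR1, 9 FXR2, 4 I304N isoform 7, 9 I304N isoform 1, 23 wild-type isoform 7 and 22 wild-type isoform 1 sites, so that it made up 23 of the 54 sites of wild-type isoform 7. The scaled ratio of I304N isoform 7 to wild-type isoform 7 was 0.154 (0.0387 to 0.451). Flagged sites in 19p12 were 11.7% of FXR1 sites, 9.21% of FXR2, 15.3% of I304N isoform 7, 17.0% of I304N isoform 1, 48.1% of wild-type isoform 7 and 16.7% of wild-type isoform 1, against 3.02% to 6.06% outside 19p12. The isoform 7 ratios in 19p12 without flagged sites are given above with the shares.

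Window counts describe the same spread. A window counted as called when sites per 100000 plus 1 differed at least 2-fold, among windows with a mean of at least 2 per 100000. FXR2 was higher than wild-type isoform 1 in 11 of 20 windows of 19p12, where 14.1% of all windows were called higher, and lower in 1, where 23.2% were called lower. FXR2 was higher than wild-type isoform 7 in 16 of 21 windows, where 20.4% of all windows were called higher. FXR1 was higher than wild-type isoform 1 in 16 of 18 windows, where 31.5% were called higher, but 1 FXR1 site is enough to bring a window past both limits where the FMR1 list has few sites. I304N isoform 1 was lower than wild-type isoform 1 in 11 of 13 windows, where 20.4% were called lower, and higher in 0, where 29.9% were called higher. I304N isoform 7 was higher than wild-type isoform 7 in 3 of 8 windows, where 21.4% were called higher, and lower in 1, where 20.1% were called lower. Wild-type isoform 7 was lower than wild-type isoform 1 in 8 of 13 windows, where 22.4% were called lower. The ratio of I304N isoform 7 to I304N isoform 1 was called higher in 2 of 9 windows, where 5.5% of all windows were, and lower in 1, where 16.3% were. FXR1 was higher than wild-type isoform 7 in 16 of 16 windows and lower in 0, where 38.3% and 46.7% of all windows were called higher and lower. FXR1 was higher than FXR2 in 8 of 20 windows and lower in 4, where 32.9% and 39% were called. FXR1 was lower than wild-type isoform 1 in 2 windows, where 46.5% were called lower. A window high in 1 library passes the filter through that library, so these counts are a description of where sites lay.

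Distances between neighbouring sites lay near a multiple of the repeat unit at higher shares in 19p12 than outside it in FXR1, FXR2 and wild-type isoform 1. Among distances of up to 1000 nt from a site to the next of the same library and strand, those within 5 nt of a multiple of 84 nt made up 21 of 54 in FXR1 (38.9%, 25.9 to 53.1). Outside 19p12 the share in FXR1 was 12.3%. In FXR2 they made up 40 of 118 (33.9%, 25.4 to 43.2), against 11.7% outside. In I304N isoform 7 they made up 8 of 34 (23.5%, 10.7 to 41.2), against 10.8% outside. In I304N isoform 1 they made up 9 of 49 (18.4%, 8.76 to 32.0), against 10.2% outside. In wild-type isoform 7 they made up 2 of 21 (9.52%, 1.17 to 30.4), against 10.8% outside. In wild-type isoform 1 they made up 40 of 201 (19.9%, 14.6 to 26.1), against 10.2% outside. The intervals of FXR1, FXR2 and wild-type isoform 1 lay above their values outside 19p12, and those of the other 3 libraries included them.

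At 19q13.4 the share near a multiple was 18.6% for FXR1, 19.8% for FXR2, 10.5% for I304N isoform 7 and 11.95% for I304N isoform 1. It was 11.6% for wild-type isoform 7 and 12.4% for wild-type isoform 1. The 19q13.4 intervals of FXR2 (14.3 to 26.2) and wild-type isoform 1 (10.4 to 14.5) also lay above their values outside 19p12. Those of the other libraries included them. The sites outside 19p12 include those at 19q13.4. At 19p13.3 the share near a multiple was 11.98% in FXR2 and 13.38% in wild-type isoform 1, and in FXR1 it rested on 10 distances. Without the densest 50 kb window, the 19p12 share was 32.5% in FXR1, 33.3% in FXR2 and 17.8% in wild-type isoform 1. By multiple, FXR1 had 8 distances near 84 nt, 4 near 168 nt and 3 near 336 nt, and FXR2 had 15 near 84 nt, 6 near 168 nt and 9 near 336 nt. Wild-type isoform 1 had 22 near 84 nt, 7 near 168 nt and 1 near 336 nt, so most of its near-multiple distances were of 1 unit.

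**Figure D3:**
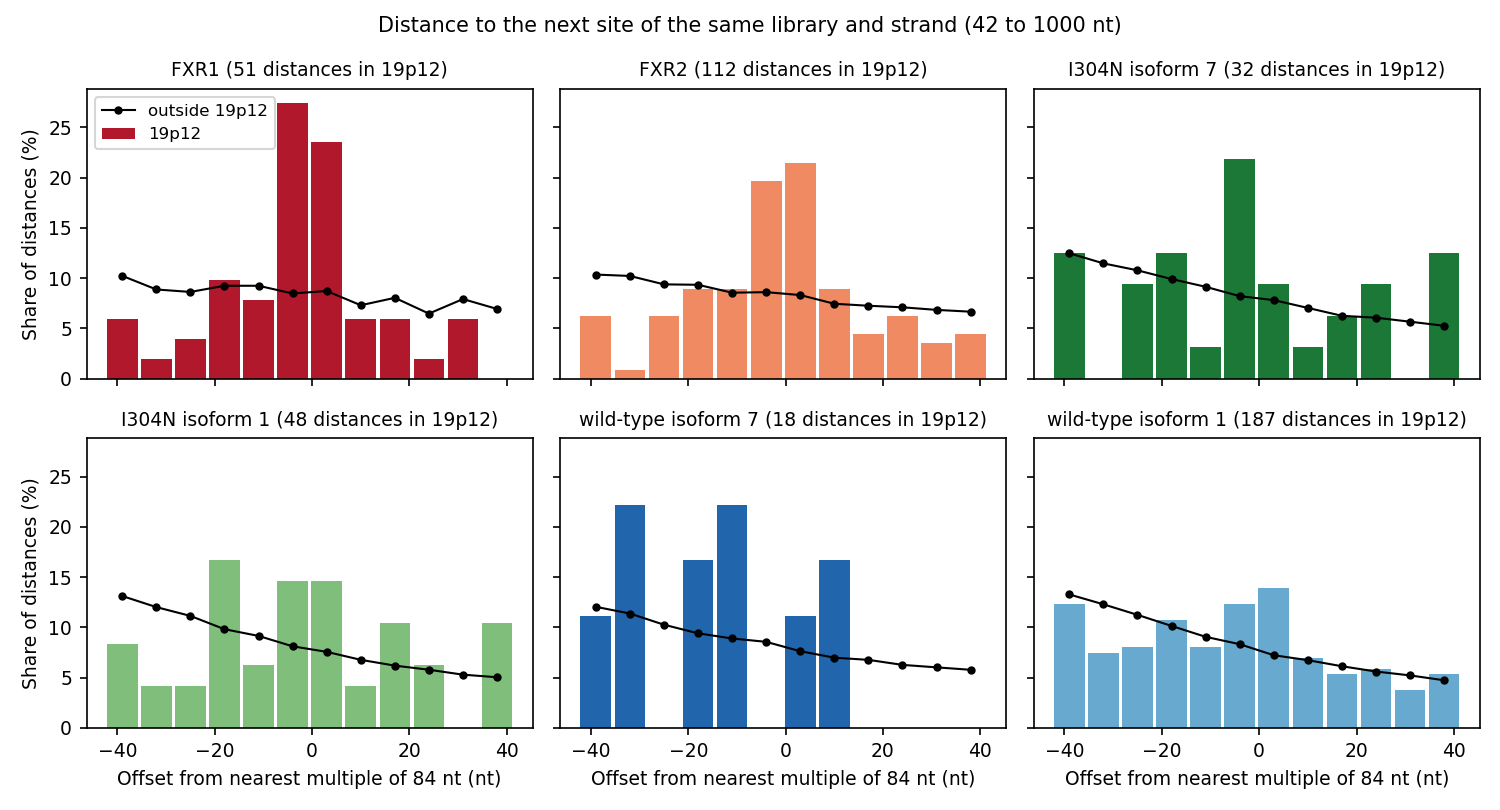
Share (%) of next-site distances of 42 to 1000 nt by their offset from the nearest multiple of 84 nt, in bins of 7 nt, for 19p12 and for sites outside it. In FXR1, the bins on either side of offset 0 hold 27.5% and 23.5% in 19p12, against 8.47% and 8.71% outside.

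Cluster 9 shows the spacing site by site. At its 5′ end, FXR1 had sites at chr19:23406563-23406589, chr19:23406479-23406505, chr19:23406397-23406419 and chr19:23406313-23406335, with midpoints 84 nt apart. FXR2 had the same 4 sites with the same ends. The next FXR1 site, chr19:23405977-23405999, lay 336 nt further on, and was again found with the same ends in FXR2. Between them FXR2 had 1 more site, chr19:23406232-23406262. Of the 17 FXR1 sites in cluster 9, 10 had an FXR2 site with identical ends.

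**Figure D4:**
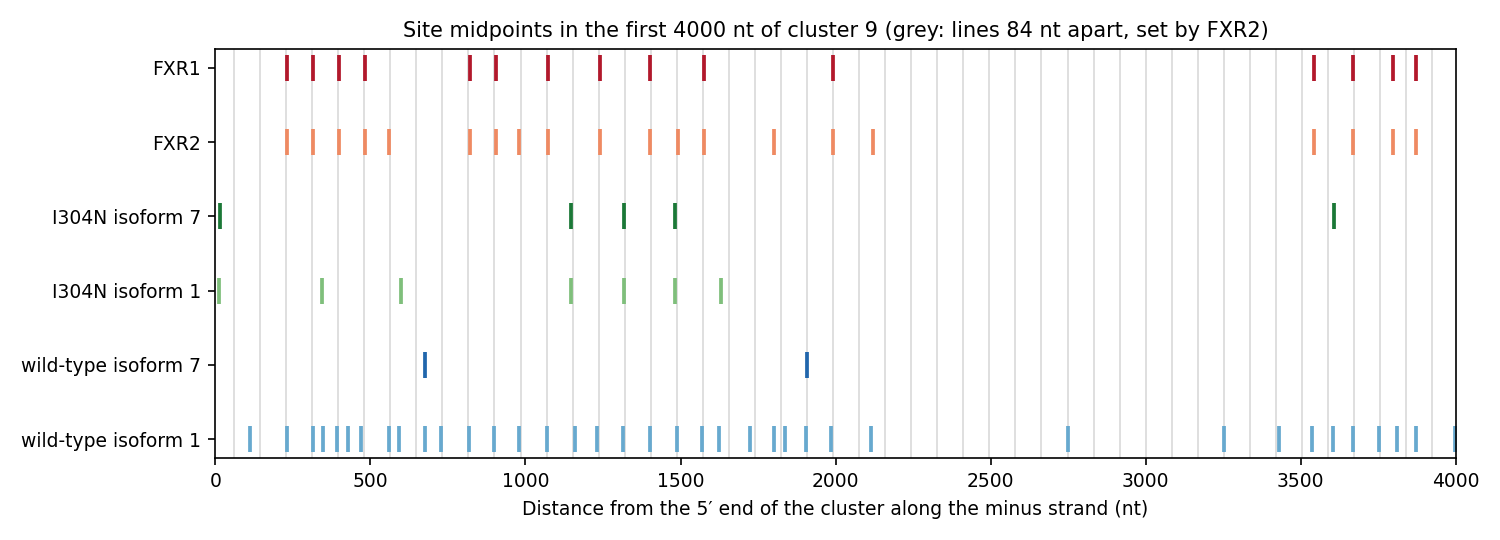
Midpoints of sites along the first 4000 nt of cluster 9, from its 5′ end on the minus strand, 1 row per library, with vertical lines every 84 nt. The first FXR1 and FXR2 sites stand 84 nt apart and within 5 nt of the lines. The grid was set from FXR2, and over the whole cluster 12 of 17 FXR1 sites lie within 5 nt of a line. Of wild-type isoform 1 sites, 18 of 52 do.

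A grid of 84 nt was laid over each of the 6 clusters with at least 10 FXR2 sites, at the position that took in most FXR2 sites, and sites within 5 nt of a grid line were counted. Even spread would put 13.1% of sites there. FXR2 had 54 of 97 (55.7%), a value the choice of grid favours. FXR1 had 33 of 56 (58.9%, 45.0 to 71.9), but all except 4 of its sites overlapped an FXR2 site, so it is not independent of the choice. I304N isoform 7 had 7 of 20 (35%, 15.4 to 59.2), I304N isoform 1 5 of 32 (15.6%, 5.28 to 32.8), wild-type isoform 7 3 of 9 and wild-type isoform 1 44 of 149 (29.5%, 22.3 to 37.5). Of the 149 wild-type isoform 1 sites, 91 overlapped no FXR2 site, and 14 of these 91 lay near a grid line (15.4%, 8.67 to 24.5). That interval holds the 13.1% of an even spread, but the grid position was set by FXR2. Sites spaced by 84 nt at another position would miss its lines, so the count does not show that these sites lack such spacing. Among sites that overlapped no FXR2 site, I304N isoform 7 had 5 of 16 near a line (31.25%, 11.0 to 58.7). I304N isoform 1 had 3 of 27 (11.1%, 2.35 to 29.2) and wild-type isoform 7 3 of 8 (37.5%, 8.52 to 75.5). These intervals hold 13.1% as well. The FMR1 sites that overlapped an FXR2 site are not independent of the choice of grid.

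Most FXR1 sites in 19p12 overlapped an FXR2 site, and fewer than 1 in 2 FXR2 sites overlapped an FXR1 site. An FXR2 site on the same strand overlapped 89.6% of FXR1 sites (80.6 to 95.4), against 74.2% outside 19p12. An FXR1 site overlapped 45.4% of FXR2 sites (37.3 to 53.7), against 19.2% outside. Of the 69 FXR1 sites so overlapped, 39 (56.5%) had identical ends in FXR2, against 58.97% outside.

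Wild-type isoform 1 shared many of these places and the other FMR1 libraries few. It overlapped 71.4% of FXR1 sites in 19p12 (60.0 to 81.2), against 70.0% outside, and 51.3% of FXR2 sites (43.1 to 59.5), against 64.4% outside. FXR1 and FXR2 sites overlapped 23.0% and 32.6% of wild-type isoform 1 sites in 19p12, against 4.87% and 16.7% outside. I304N isoform 1 overlapped 7.79% of FXR1 sites in 19p12, against 27.6% outside, and 9.21% of FXR2 sites, against 46.3% outside. I304N isoform 7 overlapped 7.79% of FXR1 sites, against 18.3% outside, and 5.92% of FXR2 sites, against 34.9% outside. Wild-type isoform 7 overlapped 11.7% of FXR1 sites, against 21.3% outside, and 7.89% of FXR2 sites, against 32.2% outside. In each of these 6 comparisons the value in 19p12 was below that outside. An overlap depends on the length of both lists and on how densely each covers the region, and these differed between 19p12 and the rest.

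**Figure D5:**
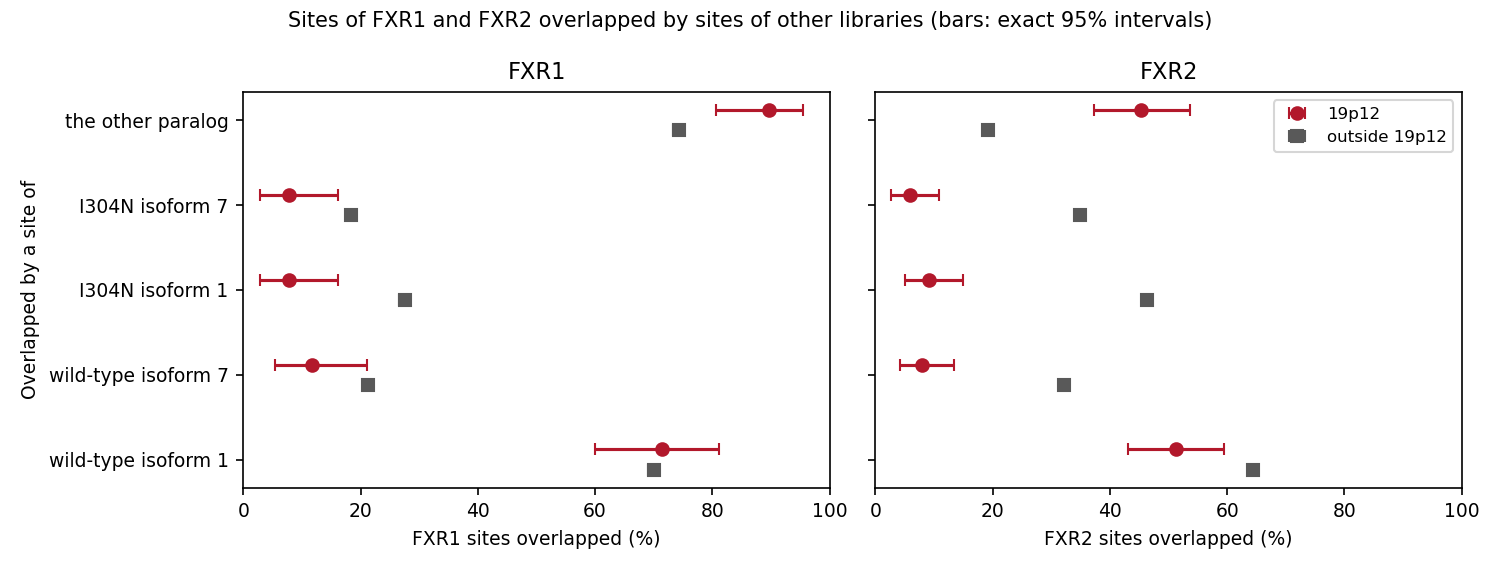
Share (%) of FXR1 sites (left) and FXR2 sites (right) overlapped by each other library, counting 1 nt or more with strands matched, in 19p12 and outside it, with exact 95% intervals. Wild-type isoform 1 overlapped 71.4% of FXR1 sites in 19p12, and I304N isoform 1 overlapped 7.79%.

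Between FMR1 libraries, I304N isoform 1 sites in 19p12 were overlapped by wild-type isoform 1 at 47.9%, against 41.7% outside. I304N isoform 7 sites were overlapped by wild-type isoform 7 at 18.1%, against 41.9% outside, and by I304N isoform 1 at 52.8%, against 75.9% outside. Wild-type isoform 1 sites were overlapped by I304N isoform 1 at 19.2%, against 44.6% outside. The interval for I304N isoform 7 by I304N isoform 1 in 19p12 was 40.7 to 64.7, and that for wild-type isoform 1 by I304N isoform 1 was 14.4 to 24.8, both below the values outside.

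Sites of all libraries that touched each other on a strand were joined into 407 regions in 19p12 and 237679 outside it. FXR sites with no FMR1 site made up 73 regions (17.9%, 14.3 to 22.0), against 4.01% outside. Of these, 20 held both FXR1 and FXR2 (4.91%), against 0.422% outside. Regions with wild-type isoform 1 and an FXR site and no other FMR1 library numbered 63 (15.5%, 12.1 to 19.4), against 3.23% outside. Wild-type isoform 1 stood alone in 113 (27.8%), against 21.8% outside. All 4 FMR1 libraries met in 11 regions (2.70%, 1.36 to 4.78), against 9.12% outside. Both I304N libraries met with no wild-type FMR1 in 11 regions as well (2.70%), against 8.32% outside. All 6 libraries met in 3 regions (0.737%), against 0.604% outside. FXR1 and FXR2 gave 77 and 152 of the 688 sites in 19p12, but 9017 and 34521 of the 464799 sites of all lists. More regions with FXR sites and fewer with FMR1 sites follow in part from this, so the patterns are not a result separate from the shares.

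Copies of zinc finger genes are similar in sequence, and how reads that fit several copies were placed is not given in the sources used here. Site positions within the clusters are uncertain to that extent, and so are the shares, cluster counts, spacings and overlaps that rest on them.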

How the data were processed

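PAR-CLIP site lists of 6 libraries, 1 per protein form, were used as the authors deposited them. Each deposited line gives chromosome, start, end, name, score and strand. The score is a flag, 1000 outside repeats and 0 in a repeat, per the file headers, and not a height. The submitters' processing notes name Bowtie 0.12.7 and the build hg19. How sites were called, with which thresholds and from how many reads is not given in the sources used here, so depth is known only as sites per list (9017 to 132219), and FXR1 has the lowest precision.

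Sites were assigned by midpoint and strand. Shares have exact Clopper-Pearson intervals and ratios exact conditional ones, at 95%. Distances were taken between site midpoints. Windows of 50 kb were scaled to 100000 sites per list, with a pseudocount of 1. Windows were ranked as the 5 densest per library and the 3 highest and 3 lowest log2 ratios per pair of libraries, and the text describes the site clusters that hold most of them.

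The region and the gene list were chosen with earlier results of these data known. The clusters, the grid, the lower limit of 42 nt and the left-out windows were chosen after the sites had been seen. Motifs within sites and transcript parts had been planned and were not run, since no genome or annotation of the build of the files was at hand. The linker analysis used GENCODE transcripts and their longest reading frames, and the linker units come from these transcripts. Alternatives covered membership, repeats, denominators, joining, tolerance, overlap, thinning, pseudocount, scaling and filters. Scripts were tested on simulated data and used Python 3.11.15, numpy 2.4.6, pandas 2.3.3, scipy 1.17.1, biopython 1.88 and matplotlib 3.10.9.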

Additional observations from a re-analysis of the deposited data

Results flagged for a closer look

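The ratio of I304N to wild type in the 19p12 share differed between isoforms. Every comparison below has 1 library on each side, and the difference was not tested over replicates. The library that stood apart was wild-type isoform 1 (0.196%). I304N isoform 1 (0.0711%), I304N isoform 7 (0.0812%) and wild-type isoform 7 (0.0688%) lay close together. At 19q13.4 the ratio was 0.955 in isoform 1 and 1.38 in isoform 7, and at 19p13.3 it was 3.27 and 1.43. In 19p12 the ratio of I304N to wild type was 0.363 in isoform 1 and 1.18 in isoform 7. The first of these divided by the second was 0.307, with an interval from 0.201 to 0.470 by normal approximation on the log scale, covering counting error only. The same 4 libraries gave a ratio of isoform 7 to isoform 1 of 1.14 among I304N libraries and 0.351 among wild-type libraries, and the first divided by the second was 3.26 (2.13 to 4.99). These are 1 interaction read in both directions. Cluster 13, with 72 of 75 sites in repeats, held 4 sites of I304N isoform 7 and 23 of wild-type isoform 7. Without the 50 kb window that holds it, 0.307 became 0.186 (0.114 to 0.305) and 3.26 became 5.38 (3.28 to 8.81). Without all repeat-flagged sites they became 0.185 (0.110 to 0.310) and 5.41 (3.22 to 9.09).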

How the results depend on the processing

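Of 237 recomputed summary values, 195 kept their direction and stayed within the limits set for a change. Some alternatives returned the main values unchanged, such as counting any base in the region or ignoring strand in overlaps. Shares, spacings and overlaps were judged by whether they stayed within the main interval, which was wide where sites were few. For the ratios of 19p12 shares 59 of 63 counted as unchanged. There only the direction and whether the interval held 1 were judged, not the size of the ratio. With chromosome 19 as denominator, the ratio of I304N isoform 7 to wild-type isoform 7 turned to 0.742 (0.514 to 1.08) and that of I304N isoform 7 to I304N isoform 1 to 0.921 (0.668 to 1.27), both with intervals that held 1, as before. The interval of the isoform 7 ratio of I304N to wild type lay above 1 without repeat-flagged sites, at 1.91 (1.20 to 3.10), and without the 50 kb window holding most of them, at 1.94 (1.25 to 3.07). Without flagged sites FXR1 was 21.5 and FXR2 11.1 times wild-type isoform 7, and without that window 19.4 and 10.5 times. Without flagged sites wild-type isoform 7 was 0.217 of wild-type isoform 1. With chromosome 19 as denominator I304N isoform 1 was 0.218 of wild-type isoform 1. Shares moved by construction with that denominator, to 14.5% for FXR1, 6.87% for FXR2, 0.802% for I304N isoform 7, 0.871% for I304N isoform 1, 1.08% for wild-type isoform 7 and 3.99% for wild-type isoform 1. Joining sites within 100 nt gave 0.112% in I304N isoform 7, 0.105% in I304N isoform 1 and 0.233% in wild-type isoform 1. Without the densest window the share was 0.371% in FXR2 and 0.154% in wild-type isoform 1. The share of wild-type isoform 7 was 0.0374% without flagged sites and 0.0395% without the window holding most of them. Near-multiple distances in wild-type isoform 7 without flagged sites were 0% of 1 distance. With every list thinned to 9017 sites, FXR2 by FXR1 stayed at 46.7%, against 45.4%, since FXR1 has 9017 sites. The other overlaps given here fell, as fewer sites can overlap: FXR1 by FXR2 24.7%, by wild-type isoform 1 5.13%, by wild-type isoform 7 1.43%, by I304N isoform 1 0.779% and by I304N isoform 7 0.844%. FXR2 was then overlapped by wild-type isoform 1 at 3.61%, by wild-type isoform 7 at 1.02%, by I304N isoform 1 at 0.845% and by I304N isoform 7 at 0.573%. Thinned values were 3.01% for I304N isoform 1 by wild-type isoform 1, 0.417% for I304N isoform 7 by wild-type isoform 7, 3.97% for I304N isoform 7 by I304N isoform 1 and 6.83% for wild-type isoform 7 by wild-type isoform 1. Windows with I304N isoform 1 lower than wild type numbered 6 with a pseudocount of 5 and 6 with median-of-ratios scaling, against 11. Those with I304N isoform 7 higher than wild type numbered 1 with a pseudocount of 5 and 12 with no filter, against 3. Those with wild-type isoform 7 lower than wild-type isoform 1 numbered 13 with no filter, against 8. Those with I304N isoform 7 higher than I304N isoform 1, 2 in the main setting, numbered 1 with a pseudocount of 5, 4 with median-of-ratios scaling, 5 with no filter, 1 with a filter of 4 and 1 without flagged sites. Those with FXR1 higher than FXR2 numbered 5 with median-of-ratios scaling, against 8. Median-of-ratios scaling moved all log2 ratios by between -1.03, for FXR1 to wild-type isoform 7, and 0.64, for I304N isoform 1 to wild-type isoform 1. The log2 ratio of FXR1 to wild-type isoform 7 in the window holding most flagged sites turned to -1.88 without them. Where construction does not show it, the cause was not tested. The alternatives planned for motifs and transcript parts were not run. No paired analysis was possible because each protein form has 1 library. Short lists limit precision most in FXR1, in which 0 sites allow a share of up to 0.0333%.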

Other observations

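The width of sites in 19p12 was compared with that of other sites of the same library. It averaged 22.97 nt ± 5.15 in FXR1, against 20.03 nt outside 19p12, and 22.7 nt ± 3.93 in FXR2, against 20.8 nt outside. It averaged 21.86 nt ± 7.53 in I304N isoform 7, against 28.2 nt outside, and 21.87 nt ± 8.44 in I304N isoform 1, against 28.05 nt outside. In wild-type isoform 7 it averaged 22.7 nt ± 9.68, against 23.2 nt outside, and in wild-type isoform 1 25.9 nt ± 10.8, against 29.5 nt outside. The ± values are SDs over the 19p12 sites of each library, which are not replicates. Median widths were 23 nt in 19p12 and 20 nt outside for FXR1, 22.5 nt and 20 nt for FXR2, 20.5 nt and 24 nt for I304N isoform 7, and 20 nt and 23 nt for I304N isoform 1. For wild-type isoform 7 they were 20 nt in 19p12 and 21 nt outside, and for wild-type isoform 1 they were 24 nt in both.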
